A study of Mus musculus with 2 samples.

Results

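The 48 h exit culture was set against the 24 h exit culture of mouse hippocampal neural stem cells, to show what changed over the second day after quiescent cells were returned to growth medium. Cells were taken by the condition given in the deposited per-cell table, which holds 151 cells of the 48 h culture and 151 of the 24 h culture, 302 of the 640 kept cells of the series. The stem cells were primary cells of hippocampi from 6-week-old male C57BL6/J mice, expanded in culture. Both cultures had first been made quiescent with 50 ng/mL of BMP4 and with FGF2 in the absence of EGF, a state the labels date from 3 days of treatment. They were then given medium with 20 ng/mL each of FGF2 and EGF, 5 ug/mL of heparin and 0.5 ug/mL of noggin, a secreted protein that binds BMP4, and sorted after 48 h or 24 h. The activated culture, given for its levels alone, was grown in FGF2 and EGF throughout, and the quiescent culture was kept in BMP4 and FGF2. The loss of BMP4, the return of EGF and the addition of noggin occurred together, so their parts cannot be told apart. Single cells were sorted into 384-well plates through 4 gates along the spread of punctate autofluorescence, called here low, low-mid, mid-high and high, and polyadenylated RNA was counted at the 3′ end of each transcript by SORT-seq with molecular identifiers.

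Adult hippocampal neural stem cells rest in the dentate gyrus in a non-dividing state that BMP signalling maintains and that shares many genes with astrocytes. When a resting cell re-enters the cycle, D-type cyclins with their kinases inactivate the retinoblastoma proteins, E2F factors then switch on the genes of DNA synthesis, and the B-Myb and FoxM1 complexes later switch on those of mitosis. A dividing cell must also make ribosomes, membranes and chromatin for its daughters, and membrane growth draws on cholesterol made under the control of the SREBP factors.

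One culture was measured at each time, and the 48 h cells lay on a plate with the activated culture while the 24 h cells lay on a plate with the quiescent culture. Plate and time therefore cannot be told apart, no difference has a replicate check and no test was made. The 4 gates of a culture are shown beside each pooled value and are not replicates. The median cell held 24947 counts at 48 h and 19270 counts at 24 h. The 48 h gates held 42, 36, 33 and 40 cells from low to high, against 32, 44, 38 and 37 cells in the 24 h gates. No 48 h cell carried the well barcode of a 24 h cell. Spike-in RNA of the External RNA Controls Consortium (ERCC), present in every well, gives a measure between plates: over 36 spike-ins with at least 20 counts, the log2 ratio of 48 h over 24 h wells had an SD of 0.13 and ran between -0.24 and 0.32, and none passed 2-fold. For 7 of these 36 spike-ins the interval for counting error left out 0, so the wells of the 2 plates differed by more than counting error alone. Genes in the same range of counts had an SD of 0.57, and 7.31% of them passed 2-fold. Spike-ins are not RNA of the cells, so differences between plates in culture or sorting were not tested by them. Counts per spike-in count were 81.3 in the median 48 h cell and 54.2 in the median 24 h cell.

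Markers of neural stem cells were high in sum and those of non-neural cells near 0 in both cultures. The summed level of 8 neural stem cell markers was 3771 counts per 1000000 counts (CPM) at 48 h and 3688 CPM at 24 h. Of these sums Fabp7 alone held 2152 CPM at 48 h and 2369 CPM at 24 h. Prom1 had no count in either culture, and Hopx was seen in 4.64% of 48 h cells and 21.2% of 24 h cells. The 10 astrocyte markers, most of which resting neural stem cells share, summed to 2056 CPM at 48 h and 6813 CPM at 24 h, with none at 0. Markers that the deposited merged counts do not list are taken here as at 0. Those counts list 4 of the 8 microglial, 3 of the 6 endothelial and mural and 3 of the 4 fibroblast markers. They also list 10 of the 11 neuronal and 7 of the 10 oligodendrocyte markers. The 8 microglial markers summed to 0.970 and 1.97 CPM at 48 h and 24 h, with 7 and 6 of them at 0. The 6 endothelial and mural markers summed to 0.727 and 0.328 CPM with 5 at 0 in each culture, and the 4 fibroblast markers to 0 and 0.328 CPM. The 11 neuronal markers summed to 26.9 and 36.1 CPM, with 4 at 0 in each culture. The oligodendrocyte lineage list stood at 3658 CPM at 48 h and 3796 CPM at 24 h, nearly all of it in Olig1 and Olig2, factors that cultured neural stem cells also express, and 4 and 3 of its 10 members were at 0.

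Of 10324 genes with at least 20 counts over both cultures, 463 (4.48%) were higher at 48 h and 267 (2.59%) were lower at 48 h past 2-fold. A gene counted when the log2 ratio of CPM, with 10 CPM added to each, was at least 1 in size, when its 95% interval for counting error left out 0, and when all 4 gates shared its sign. The median log2 ratio over all measured genes was -0.03, and of the genes past 2-fold 63.4% were higher. Gates that do not overlap were common. All 4 gates of 48 h lay above all 4 of 24 h for 1442 measured genes (14.0%). They lay below for 1504 (14.6%). When spike-in counts replaced total counts the median moved by 0.43, to 0.40, since 48 h cells held more RNA per spike-in count, and 1361 genes were higher and 61 lower past 2-fold, 95.7% of them higher. Each level is a share of all counts of its culture, so a lower share at 48 h need not mean fewer molecules per cell. Levels are compared between cultures and not between genes.

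**Figure D1:**
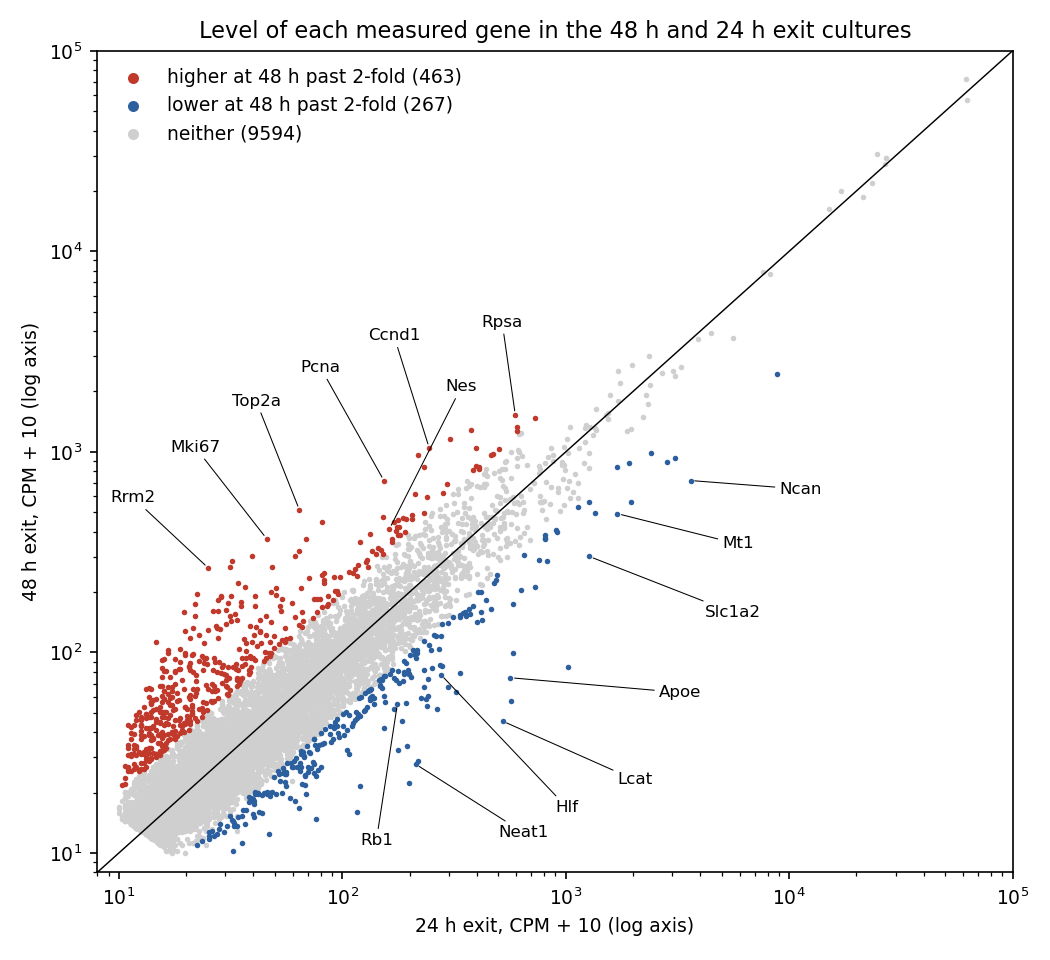
Each point is 1 of 10324 measured genes, with its level in the 24 h culture on the horizontal axis and in the 48 h culture on the vertical axis, both as CPM + 10 on log axes. The 463 genes in red were higher and the 267 in blue lower at 48 h past 2-fold, and the line marks equal levels.

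The deposited phase calls, which stand beside scores for S, G2/M and G0 in the authors' table, differed widely between the cultures. At 48 h, 108 of 151 cells were called S or G2/M (71.5%, exact binomial 95% interval 63.6 to 78.6), against 7 of 151 cells at 24 h (4.64%, 1.88 to 9.32). By gate from low to high, the S or G2/M share at 48 h was 81.0%, 75.0%, 69.7% and 60.0%, against 3.12%, 6.82%, 2.63% and 5.41% at 24 h. G0 calls covered 22 of 151 cells at 48 h and 138 of 151 at 24 h. At 48 h none of the 42 cells of the low gate was called G0, for which the exact interval reaches up to 8.41% and a floor of 3 counts 7.14%, while 13 of the 40 cells of the high gate were. The intervals cover counting error alone.

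**Figure D2:**
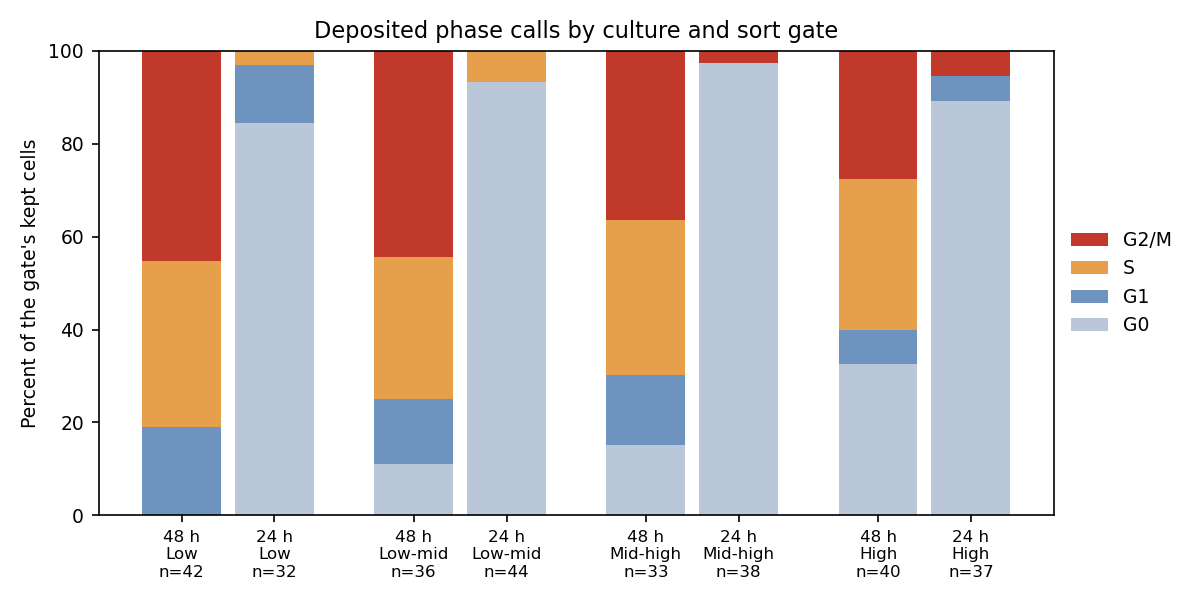
Bars give the percent of kept cells in each deposited phase call, with the 48 h culture left of the 24 h culture in each of the 4 sort gates and the number of cells under each bar. Cells called S or G2/M made up 60.0% to 81.0% of each 48 h gate and 2.63% to 6.82% of each 24 h gate.

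Ccnd1 and several kinases and E2F factors of G1 were higher at 48 h, and Rb1 was lower. Of 20 measured genes of the G1 list, 9 were higher past 2-fold and 1 was lower, with a median log2 ratio of 0.77 and gate medians between 0.58 and 0.77. Ccnd1, the D-type cyclin most responsive to growth factors, stood at 905, 1013, 1176 and 1043 CPM in the 48 h gates from low to high, against 309, 308, 107 and 236 CPM in the 24 h gates. The 4 gates of 48 h all lay above the 4 of 24 h, and the pooled log2 ratio was 2.10 (counting interval 1.99 to 2.21). The sister cyclin Ccnd2 stood at 1293 CPM at 48 h and 1950 CPM at 24 h, a log2 ratio of -0.59 that is under the threshold, and Ccnd3 at 11.4 and 10.8 CPM. The kinases Cdk4 and Cdk2, which D-type and E-type cyclins activate, had log2 ratios of 1.40 and 1.38, and Ccne1 one of 1.36. Rb1, which holds E2F factors inactive in resting cells, was the member that was lower, at 45.6 CPM at 48 h and 167 CPM at 24 h (log2 ratio -1.67, interval -1.88 to -1.46). Its relative Rbl1 (p107), itself an E2F target, went the other way with 46.8 CPM at 48 h and 6.57 CPM at 24 h. E2f1 had 25.7, 29.4, 28.9 and 39.2 CPM in the 48 h gates, against 1.99, 5.75, 3.77 and 3.42 CPM in the 24 h gates, so that the groups did not overlap. E2f8, a repressor that E2f1 induces, had a log2 ratio of 1.66.

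Among 25 measured brakes of the cycle, 1 was higher and 1 lower past 2-fold. These counts lie near the shares over all measured genes, 4.48% higher and 2.59% lower. The median log2 ratio of the list was -0.24, with 10 genes above 0 and 15 below. The higher one was Cdkn2c, which encodes the CDK4 and CDK6 inhibitor p18, at 89.5 CPM at 48 h and 37.1 CPM at 24 h. The lower one was Pik3ip1, an inhibitor of PI3 kinase, at 10.2 CPM at 48 h and 30.9 CPM at 24 h. Cdkn1a, which encodes p21, stood at 235, 299, 412 and 594 CPM in the 48 h gates, against 222, 187, 201 and 322 CPM in the 24 h gates. Its log2 ratio was 0.80, under the threshold, and its gates overlapped. Cdkn1b (p27) stood at 73.0 and 98.8 CPM at 48 h and 24 h, a log2 ratio of -0.39.

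Most measured genes of DNA synthesis were higher past 2-fold at 48 h. Of the origin licensing genes, which load the replicative helicase, 11 of 17 were higher past 2-fold and none lower, with a median log2 ratio of 1.43. Of the replication fork genes 25 of 38 were higher (median 1.37), and of the genes of nucleotide synthesis 15 of 29 (median 1.05), with none lower in either. The 6 subunits of the MCM helicase had log2 ratios between 1.68 for Mcm4 and 2.42 for Mcm5. Mcm5 stood at 142, 103, 130.1 and 88.5 CPM in the 48 h gates, against 14.0, 24.2, 7.53 and 5.69 CPM in the 24 h gates. Orc3, a subunit of the origin recognition complex, was the one licensing gene below 0, at -0.26 with an interval that held 0. Pcna, the sliding clamp of DNA polymerase, stood at 744, 684, 794 and 650 CPM in the 48 h gates, against 179.7, 163, 108 and 137 CPM in the 24 h gates. Both genes were higher in every 48 h gate than in any 24 h gate.

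Rrm2, the regulatory subunit of ribonucleotide reductase, with the highest ratio of all named genes, stood at 272, 182, 305 and 255 CPM in the 48 h gates, against 35.9, 8.05, 12.6 and 12.5 CPM in the 24 h gates. Its pooled log2 ratio was 3.39 (3.12 to 3.66), while Rrm1, which encodes the catalytic subunit, had 2.23. With every cell thinned to 11319 counts, 76.9% of 143 cells at 48 h and 8.66% of 127 cells at 24 h held an Rrm2 transcript (84.1% and 9.93% unthinned). Tk1, which salvages thymidine, had a log2 ratio of 3.02.

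The promoters of Mcm6 and Mcm5 are shown because licensing genes moved together and E2F sites are the known feature of this group. The windows run from 250 bases before to 50 bases after the RefSeq start of the gene, on GRCm38.p6, 5′ to 3′ on the gene's strand, and capitals mark TTTGGCGC, TTTCCCGC or TTTCGCGC on either strand.
Mcm6, chr1:128359656-128359955, minus strand: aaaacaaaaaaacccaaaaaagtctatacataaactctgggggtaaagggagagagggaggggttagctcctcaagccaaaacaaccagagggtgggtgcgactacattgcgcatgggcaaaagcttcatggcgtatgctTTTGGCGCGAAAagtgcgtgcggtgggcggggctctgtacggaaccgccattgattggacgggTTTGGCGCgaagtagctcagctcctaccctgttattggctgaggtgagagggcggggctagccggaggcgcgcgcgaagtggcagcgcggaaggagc
Mcm5, chr8:75109259-75109558, plus strand: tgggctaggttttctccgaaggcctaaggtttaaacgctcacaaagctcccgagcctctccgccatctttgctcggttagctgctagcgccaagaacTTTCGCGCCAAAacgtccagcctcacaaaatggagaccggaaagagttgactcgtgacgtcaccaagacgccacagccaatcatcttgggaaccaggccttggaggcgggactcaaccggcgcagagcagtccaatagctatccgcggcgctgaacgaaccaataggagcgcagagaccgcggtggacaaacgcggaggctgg
Mcm6 held 3 matches, at 110, 106 and 47 bases before the start, and Mcm5 held 2, at 153 and 149 bases before it. The first 2 matches of Mcm6 overlap, as do both of Mcm5, each pair reading the same stretch on both strands. Such a match was held by 7 of 15 origin licensing genes with a window (46.7%) and by 10 of 29 such genes of DNA repair (34.5%), but by only 2 of 26 genes of nucleotide synthesis (7.69%), against 4.42% of the 8343 measured genes with a window and 2.12% of all 27025 genes with a RefSeq window. Of the replication fork genes 78.9% had a window, under the 80% needed, so no share is given. A match is a description of letters and not a measured binding site.

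The lists of mitotic kinases, spindle and kinetochore had the 3 highest medians of all lists. Of the mitotic cyclins and kinases 22 of 25 were higher past 2-fold, of the spindle and cytokinesis genes 24 of 29, and of the kinetochore and checkpoint genes 31 of 39, with none lower. The median log2 ratios were 1.72, 1.89 and 1.81. Cdk1, the kinase that drives entry into mitosis, stood at 238, 261, 341 and 312 CPM in the 48 h gates, against 25.9, 10.4, 42.7 and 38.8 CPM in the 24 h gates. Its partner Ccnb1 stood at 178, 169, 157 and 158 CPM in the 48 h gates, against 0, 3.45, 8.79 and 29.7 CPM in the 24 h gates. The 48 h levels of Ccnb1 differed little between gates, and at 24 h its level was highest in the high gate and 0 in the low gate. Ccna2, the cyclin of S phase and early mitosis, had a pooled log2 ratio of 3.09, with 3.60, 4.14, 3.25 and 2.19 from the low to the high gate.

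The rest of the mitotic apparatus ran alongside. Spc25 and Spc24, subunits of the NDC80 complex that ties kinetochores to microtubules, had log2 ratios of 3.13 and 2.56, and Cenpe, a kinetochore motor, 2.68. Pbk, a mitotic kinase, had 2.74, Ckap2, a spindle protein, 2.69, and Cenpa, the histone that marks the centromere, 2.61. Top2a, the topoisomerase that untangles sister chromatids, had 3.00, and Ccnb2, the second B-type cyclin, 2.59. Tpx2, which activates Aurora A on the spindle, Racgap1, which positions the cleavage furrow, and the Polo kinase Plk1 had 2.59, 2.73 and 2.61. Numa1, a spindle pole protein, stood at 33.2 CPM at 48 h and 35.8 CPM at 24 h and was the one spindle gene below 0. Among 17 genes of the anaphase-promoting complex and mitotic exit 5 were higher, led by the ubiquitin-conjugating enzyme Ube2c at 310.2 CPM at 48 h and 54.3 CPM at 24 h and by the activator Cdc20, while the core subunit Anapc10 had a log2 ratio of -0.34. Condensin and cohesin genes divided likewise, with 10 of 21 higher, led by the condensin subunits Ncaph at 2.25 and Smc2 at 2.18.

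The windows of Cdk1 and Mki67, the gene of a protein that coats mitotic chromosomes, are shown because mitotic genes are known for the cell cycle genes homology region (CHR), the site of the B-Myb complex. The windows are drawn as above, and capitals mark TTTGAA or TTCGAA on either strand.
Cdk1, chr10:69352863-69353162, minus strand: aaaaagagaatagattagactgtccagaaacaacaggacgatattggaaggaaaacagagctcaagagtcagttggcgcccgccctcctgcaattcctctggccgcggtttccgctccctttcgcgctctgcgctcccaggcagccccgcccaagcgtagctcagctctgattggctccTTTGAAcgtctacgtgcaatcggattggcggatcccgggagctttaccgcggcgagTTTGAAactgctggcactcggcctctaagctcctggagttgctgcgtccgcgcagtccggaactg
Mki67, chr7:135716330-135716629, minus strand: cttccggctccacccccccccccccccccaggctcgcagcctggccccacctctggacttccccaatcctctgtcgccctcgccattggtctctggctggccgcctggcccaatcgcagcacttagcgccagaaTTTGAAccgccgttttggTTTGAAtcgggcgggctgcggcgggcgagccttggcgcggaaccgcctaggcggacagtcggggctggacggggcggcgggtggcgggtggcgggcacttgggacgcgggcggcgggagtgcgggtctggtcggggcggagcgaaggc
Cdk1 held 2 such matches, at 71 and 15 bases before the start, and Mki67 held 2, at 116 and 98 bases before it. A match was held by 20 of 25 spindle genes with a window (80.0%) and 18 of 33 kinetochore genes (54.5%), but by 5 of 17 genes of the anaphase-promoting complex and mitotic exit (29.4%), against 15.8% of the measured genes with a window and 21.7% of all genes with a RefSeq window. The mitotic cyclins and kinases had windows for 16 of 25 genes, too few for a share.

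Part of the genes of chromatin, the nuclear envelope and the cytoskeleton were higher as well. Of 40 chromatin packaging genes 17 were higher past 2-fold and none lower, among them H2afx, a histone variant that marks broken DNA, at 143 CPM at 48 h and 11.8 CPM at 24 h, and Uhrf1, which maintains DNA methylation at the fork, with a log2 ratio of 2.15. All 31 measured genes of the nuclear envelope and pore had ratios above 0 and 12 were higher past 2-fold, led by the lamina proteins Tmpo at 2.30 and Lmnb1 at 1.98. Lmnb1 stood at 45.1 CPM at 48 h and 3.94 CPM at 24 h. Of 36 genes of DNA repair and its checkpoints 18 were higher, with the checkpoint kinase Chek1 at 1.68. Among 18 tubulins and microtubule regulators 6 were higher, led by the microtubule destabiliser Stmn1 at 357 CPM at 48 h and 58.8 CPM at 24 h, and 1 was lower, the axonal protein gene Mapt at -1.18. Of 22 actin genes 4 were higher, namely Tagln2, Tpm4, Tmsb10 and Lgals1. Reads of tubulins, histones and ribosomal proteins can come from near-identical copies, so a single member of these families is uncertain.

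Genes that make ribosomes were higher at 48 h by less. The median log2 ratio of 73 cytosolic ribosomal protein genes was 0.77, with 72 above 0 and 14 higher past 2-fold. Rpsa, a protein of the small subunit, stood at 2129, 1782, 1256 and 1163 CPM in the 48 h gates, against 961, 650.3, 437 and 439 CPM in the 24 h gates. In both cultures the level was highest in the low gate, and the gates of the cultures did not overlap. Ribosome biogenesis genes had a median of 0.63 with 10 of 41 higher, led by Nop56, a core protein of the particles that methylate ribosomal RNA, at 219 CPM at 48 h and 72.6 CPM at 24 h. Of 41 translation factors 2 were higher, Eif4a1 and Eif5a, and of 22 aminoacyl-tRNA synthetases 1, Vars. Both counts lie near the 4.48% of all measured genes that were higher. Splicing factors had a median of 0.76 with 10 of 40 higher, led by Lsm2 and Ptbp1. None of 25 chaperones and none of 31 proteasome genes passed 2-fold, with medians of 0.46 and 0.19.

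Cholesterol synthesis was higher along most of the pathway. Of 21 measured genes of synthesis 15 were higher past 2-fold and none lower, with a median log2 ratio of 1.17. In pathway order, Acat2 had 1.56, Hmgcs1 1.17, Mvk 1.12, Pmvk 0.83, Mvd 1.37, Idi1 1.08 and Fdps 2.07. After Fdps, which makes farnesyl diphosphate, Fdft1 had 1.69 on the branch to sterols and Ggps1, on the branch to geranylgeranyl diphosphate, had -0.16 with an interval that held 0. Further on, Sqle had 1.38, Lss 1.19, Cyp51 1.57, Sc4mol 1.12 and Nsdhl 1.26, while Tm7sf2, Hsd17b7, Ebp and Sc5d lay between 0.38 and 0.53. Dhcr7, which acts near the end of the pathway, had 1.78.

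The low and low-mid gates were highest for this pathway in both cultures. Hmgcs1, which makes HMG-CoA, stood at 728, 543, 298 and 329 CPM in the 48 h gates, against 297, 207, 167 and 148 CPM in the 24 h gates. Its lowest 48 h gate thus lay next to its highest 24 h gate. Summed over the pathway, the median cell of the low gate held 4393 CPM at 48 h and 1099 CPM at 24 h, and the median cell of the high gate 1724 and 721 CPM.

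The list of sterol regulators, uptake and efflux was mixed, with 4 of 18 measured genes lower and 1 higher past 2-fold, and its median log2 ratio of -0.25 became 0.15 with spike-in scaling. The 4 lower genes were Lcat, Apoe, Abca1 and Lrp1. Lcat, which esterifies cholesterol on lipoproteins, stood at 17.5, 11.3, 38.9 and 58.1 CPM in the 48 h gates, against 243, 325, 732 and 654 CPM in the 24 h gates, a log2 ratio of -3.52 (-3.72 to -3.33). The lipid carrier Apoe had a log2 ratio of -2.92 and Abca1, which loads cholesterol onto it, -2.44, and both were lower in every 48 h gate than in any 24 h gate. Srebf2, the factor that controls the pathway, was at 31.5 CPM at 48 h and 20.0 CPM at 24 h, a log2 ratio of 0.47. Of 18 genes of fatty acid synthesis none was higher past 2-fold and 1, Thrsp, was lower.

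The window of Hmgcs1 is shown as a known target of the SREBP factors, with capitals at TCACNCCAC on either strand, a common form of the sterol regulatory element.
Hmgcs1, chr13:119690101-119690400, plus strand: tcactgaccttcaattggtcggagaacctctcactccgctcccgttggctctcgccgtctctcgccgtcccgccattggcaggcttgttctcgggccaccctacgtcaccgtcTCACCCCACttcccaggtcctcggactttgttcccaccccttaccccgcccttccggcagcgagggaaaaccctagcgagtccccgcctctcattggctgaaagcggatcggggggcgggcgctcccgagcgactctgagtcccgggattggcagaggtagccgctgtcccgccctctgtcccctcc
It held 1 match, 137 bases before the start, as did 1.44% of all RefSeq windows. Windows were matched for 16 of 21 genes of the pathway, too few for a share. Hmgcs1 was the only gene of these 16 whose window held a match.

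The astrocyte-like programme was the main group of lower genes. Of 31 measured astrocyte genes 18 were lower past 2-fold and none higher, with a median log2 ratio of -1.50 and -0.88 with spike-in scaling. Summed over the list, cells held a median of 6757 CPM at 48 h (10th to 90th percentile 4303 to 12166), against 19738 CPM at 24 h (11321 to 30125), so that the 90th percentile at 48 h lay a little above the 10th percentile at 24 h. By gate from low to high, the median was 4880, 6010, 7090 and 8815 CPM at 48 h, against 13772, 19276, 25016 and 23253 CPM at 24 h. Slc1a2, the main glutamate transporter of astrocytes, stood at 128, 214, 307 and 422 CPM in the 48 h gates, against 826, 1229, 1456 and 1376 CPM in the 24 h gates. Its level was 17.1 CPM in the activated and 421 CPM in the quiescent culture, so that the 24 h level was the highest of the 4. Aqp4, the water channel of astrocyte endfeet, stood at 4.67, 5.65, 5.55 and 7.42 CPM in the 48 h gates, against 51.8, 94.5, 133 and 124 CPM in the 24 h gates. Sparcl1, a secreted matricellular protein, had a log2 ratio of -3.31, and F3, tissue factor, had -3.15. Clu and Slc6a11 were the astrocyte genes above 0, each at 0.42.

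Further genes were lower outside the astrocyte list. Ncan, the matrix proteoglycan neurocan, stood at 709.7 CPM at 48 h and 3613 CPM at 24 h (log2 ratio -2.33), with 82.0 CPM in the activated and 9241 CPM in the quiescent culture. Serpinf1, a secreted serpin, Aldh1a1, which makes retinoic acid, and Pygm, a glycogen phosphorylase, had -2.92, -2.09 and -2.34. The 24 h culture held 209, 326 and 313 CPM of these 3, against 716, 177 and 201 CPM in the quiescent culture, so that Serpinf1 alone of them was highest in the quiescent culture. Daam2, a formin of the Wnt pathway, Paqr8, a membrane progestin receptor, and Scrg1, a small secreted protein, had -2.47, -2.51 and -2.34. Of 21 BMP pathway genes 3 were lower past 2-fold, all of them Id genes, the direct targets of BMP signalling, and none was higher. Id2 stood at 73.5, 40.7, 54.5 and 60.1 CPM in the 48 h gates, against 139.5, 234, 386 and 336 CPM in the 24 h gates. Its log2 ratios by gate were -0.84, -2.27, -2.62 and -2.30, smallest in size in the low gate. Id1 and Id3 had pooled log2 ratios of -1.28 and -1.15. Nog, which encodes noggin itself, had 0.242 CPM at 48 h and 8.21 CPM at 24 h, a log2 ratio of -0.83, under the threshold.

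A further group was high at 24 h relative to the quiescent culture on the same plate as well as to the 48 h culture. Mt2, a metallothionein that binds zinc, stood at 64.2, 64.4, 61.1 and 137 CPM in the 48 h gates, against 203, 345, 995 and 610.3 CPM in the 24 h gates. The activated and quiescent cultures had 138 and 127 CPM. Mt1 stood at 482 CPM at 48 h and 1694 CPM at 24 h, with 508 CPM in the activated and 329 CPM in the quiescent culture. Hlf, a circadian transcription factor of the PAR-bZIP family, stood at 43.2, 54.2, 73.3 and 85.8 CPM in the 48 h gates, against 233, 254, 278 and 287 CPM in the 24 h gates, with 7.92 CPM in the activated and 50.5 CPM in the quiescent culture. Neat1, the long non-coding RNA of paraspeckles, had 17.7 CPM at 48 h and 203 CPM at 24 h, with 9.45 and 26.0 CPM in the activated and quiescent cultures. S1pr1, a receptor for sphingosine-1-phosphate, had 43.9 CPM at 48 h and 230.0 CPM at 24 h, with 40.2 and 64.2 CPM in the activated and quiescent cultures. The 24 h level was the highest of the 4 cultures for each of these 5 genes, which were named here after their levels had been seen.

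The lists that hold Hlf, Mt1 and Mt2 were lower in part. Of 10 metallothionein and zinc genes 3 were lower past 2-fold. The median of that list was -0.21, with 0.082 in the low gate and 0.22 with spike-in scaling. Of 16 clock genes 4 were lower past 2-fold, namely Hlf, Nr1d2, Bhlhe41 and Rorb, and all 16 had ratios below 0, with a median of -0.61 and -0.26 with spike-in scaling. Of 17 glucocorticoid response genes 5 were lower (Mt1, Mt2, Tsc22d3, Dusp1 and Nfkbia), with a median of -0.75 and -0.31 with spike-in scaling. Tsc22d3, the glucocorticoid-induced leucine zipper, stood at 14.3 CPM at 48 h and 57.8 CPM at 24 h. Fkbp5, another glucocorticoid target, did not follow, with a log2 ratio of 0.79. The window of Mt2 is shown because Mt1 and Mt2 moved together, with capitals at TGCGCNC or TGCACNC on either strand, the core of the metal response element.
Mt2, chr8:94172368-94172667, plus strand: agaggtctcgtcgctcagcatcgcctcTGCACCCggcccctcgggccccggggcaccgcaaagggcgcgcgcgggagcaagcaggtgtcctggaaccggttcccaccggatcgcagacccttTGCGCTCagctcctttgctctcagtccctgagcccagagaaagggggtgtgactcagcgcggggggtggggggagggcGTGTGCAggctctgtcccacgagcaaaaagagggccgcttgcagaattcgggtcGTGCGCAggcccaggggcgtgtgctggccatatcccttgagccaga
Mt2 held 4 matches, at 223, 128 and 50 bases before and 5 bases after the start, a number reached by 0.588% of all RefSeq windows. At least 1 match is common, in 42.7% of the measured genes with a window, and 5 of 8 windows of the metallothionein and zinc list held one.

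The lysosome, autophagy, fatty acid oxidation and glycolysis lists had medians below 0, each with 2 or 3 genes lower past 2-fold. Over all measured genes 2.59% were lower and 4.48% higher. The share of lower genes in each of these lists was above 2.59% but rests on few genes. Of 54 lysosomal genes 3 were lower (Ctsl, Atp6v0e and Lgmn), with a median log2 ratio of -0.50 that became 0.072 with spike-in scaling. Of 33 autophagy genes 2 were lower, Gabarapl1 and Bnip3l, and the median of -0.38 became 0.13. Of 30 genes of fatty acid oxidation 2 were lower, among them the fatty acid carrier Fabp5, and the median of -0.40 became 0.084. Of 24 glycolysis genes Aldoc, Slc2a1 and Pfkm were lower, and the median of -0.22 became 0.33. None of 75 nuclear genes of oxidative phosphorylation and none of 15 mitochondrial transcripts passed 2-fold, with medians of -0.02 and 0.03. Of 17 hypoxia-type genes 13 had ratios below 0, and the median of -0.37 became 0.076 with spike-in scaling. Vegfa, Slc2a1 and Epas1 were lower past 2-fold. Adm, a peptide hormone, was the only member higher past 2-fold, at 86.1 CPM at 48 h and 13.5 CPM at 24 h.

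**Figure D3:**
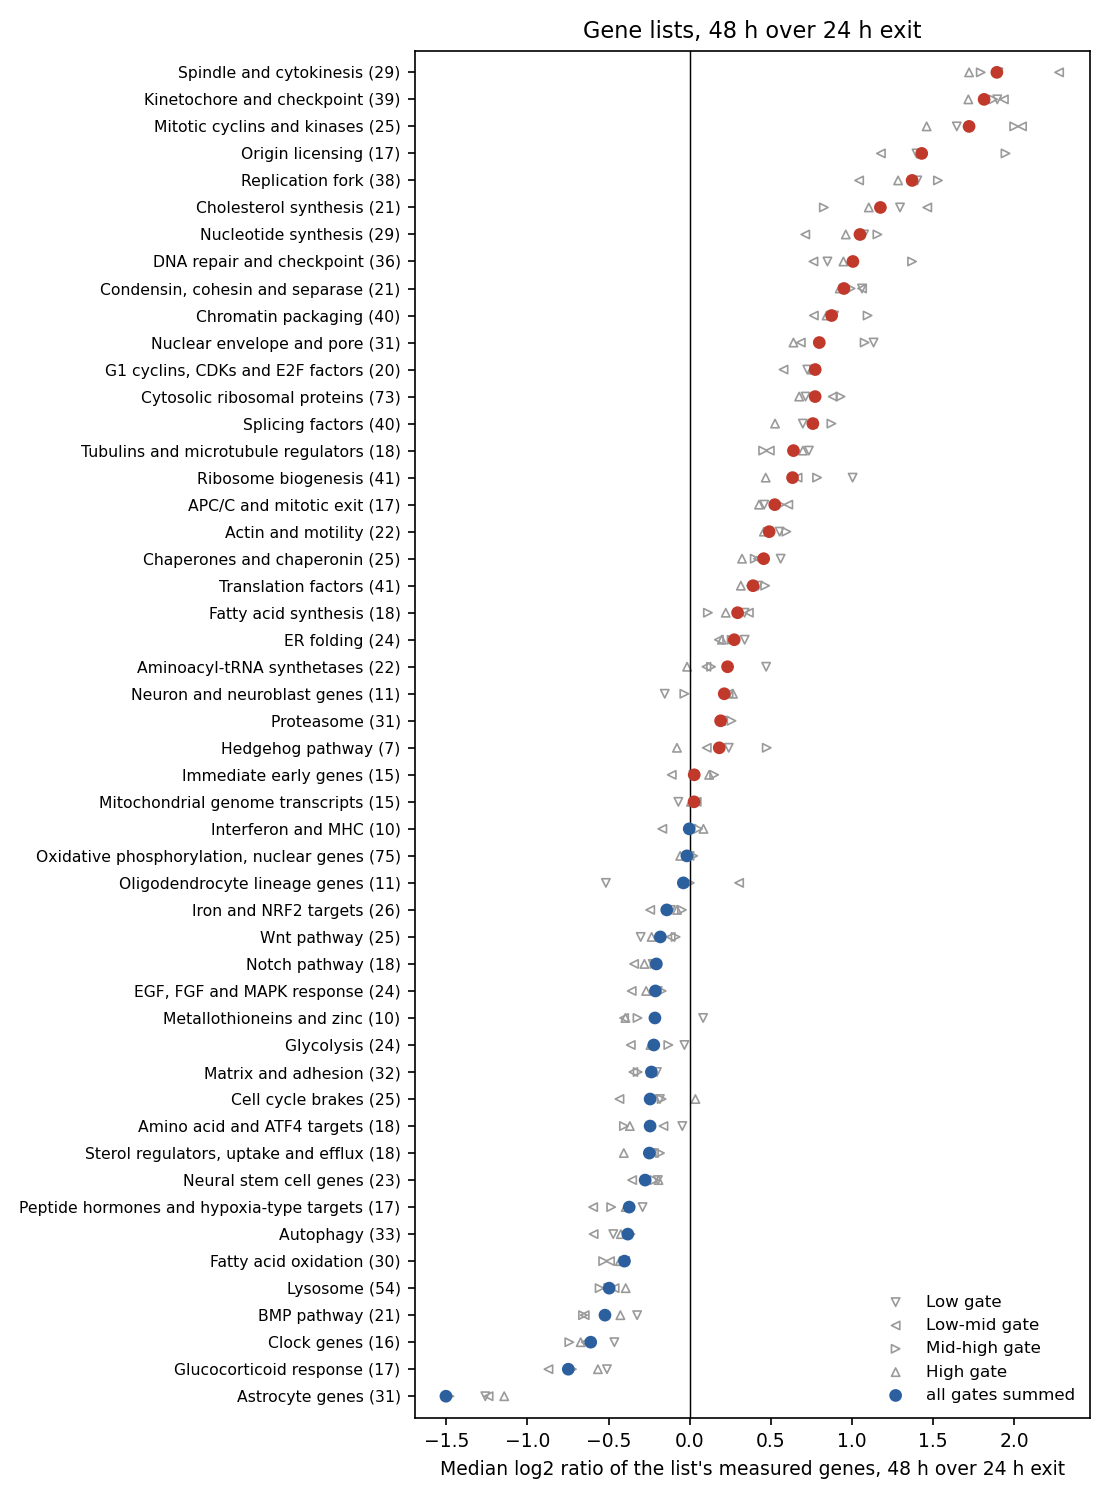
Each row is a gene list with at least 5 measured genes, whose number stands in brackets, and filled points give its median log2 ratio of 48 h over 24 h exit, red above and blue below 0. Open triangles give the median in each of the 4 gates. Spindle genes are at the top with a median of 1.89 and astrocyte genes at the bottom with -1.50.

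For other signalling pathways and cell identity, counts past 2-fold stand beside 4.48% higher and 2.59% lower over all measured genes. These lists are small, so none is read as more or less changed than all genes. None of 24 measured genes of the EGF, FGF and MAPK list passed 2-fold, a list of receptors, feedback inhibitors and early targets. The receptor Egfr stood at 53.3 CPM at 48 h and 45.3 CPM at 24 h, a log2 ratio of 0.20 with an interval that held 0. The feedback genes Spry2 and Etv5 had log2 ratios of -0.91 and -0.81. Of 18 Notch pathway genes 2 were lower, the ligands Jag1 and Dner. Of 25 Wnt pathway genes the ligand Wnt7a was higher at 28.8 CPM at 48 h and 5.25 CPM at 24 h, and the inhibitor Wif1 was lower. Of 23 neural stem cell genes 1 passed 2-fold, Nes, an intermediate filament of progenitors, at 402 CPM at 48 h and 152 CPM at 24 h. Sox2 stood at 167 CPM at 48 h and 263 CPM at 24 h (log2 ratio -0.63). Sox11 and Cd24a, genes of immature neurons and progenitors, had log2 ratios of 1.56 and 1.46, whereas Tubb3 was at 4.36 CPM at 48 h and 7.55 CPM at 24 h.

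**Figure D4:**
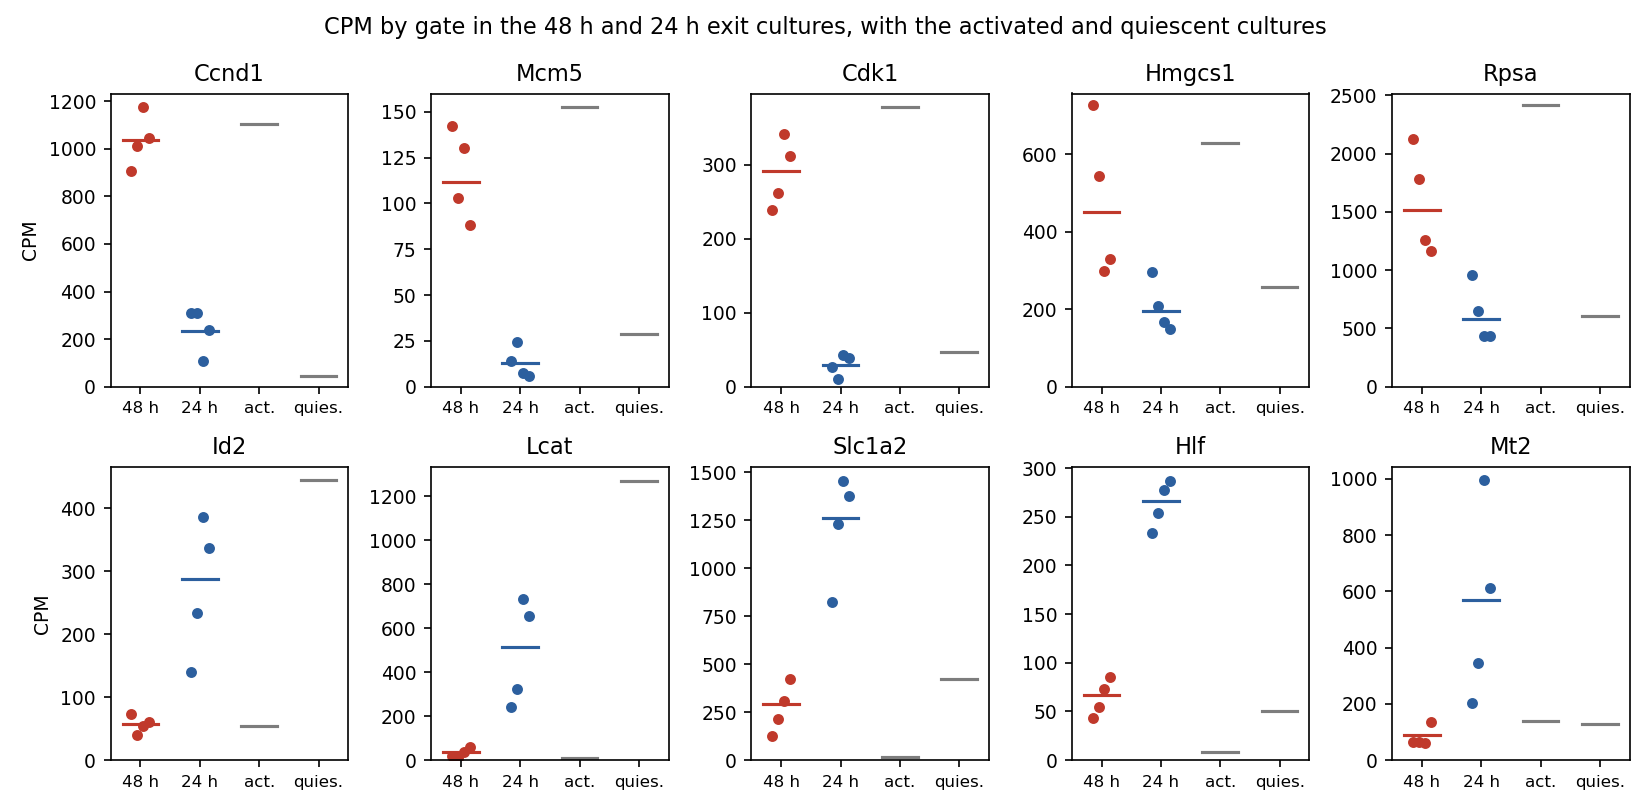
Levels of 10 genes in CPM, with 1 point for each sort gate of the 48 h (red) and 24 h (blue) cultures in order from low to high and a bar for the culture as a whole. Grey bars give the activated and quiescent cultures as a whole. The 48 h gates lie apart from the 24 h gates for each of the 10 genes, narrowly for Hmgcs1. Over all measured genes, 14.0% had all 48 h gates above all 24 h gates and 14.6% had them below. Slc1a2, Hlf and Mt2 are highest at 24 h among the 4 cultures.

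To see which differences accompany cells in the cycle, the comparison was repeated over cells called neither S nor G2/M, 43 at 48 h and 144 at 24 h. The subset is not alike in the cultures, with 21 cells called G1 and 22 called G0 at 48 h, against 6 called G1 and 138 called G0 at 24 h. Phase calls are made from cell cycle transcripts, so low levels of those transcripts in this subset follow from the choice of cells. Of 9224 genes with at least 20 counts, 91 (0.987%) were higher and 172 (1.86%) lower at 48 h past 2-fold, and 83 of the 463 higher and 141 of the 267 lower genes of the whole comparison were among them. The median log2 ratio of the spindle genes was 0.28, of the kinetochore genes 0.41 and of the replication fork genes 0.26. Cholesterol synthesis kept a median of 1.02, with 2355 CPM in sum at 48 h and 1039 CPM at 24 h, against 2784 and 1053 CPM over all cells. Ribosomal proteins had 0.62, clock genes -0.59, glucocorticoid genes -0.64 and astrocyte genes -0.97.

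Single genes varied in how far their ratios differed between this subset and all cells. Ccnd1 stood at 1241 CPM at 48 h and 219.7 CPM at 24 h in this subset, a log2 ratio of 2.45 against 2.10 over all cells. Rab3b, a GTPase of vesicle release, stood at 136 CPM at 48 h and 4.86 CPM at 24 h, a log2 ratio of 3.30 against 2.95. Adm had 1.73, Stmn1 1.68 and Fdps 1.65. Mcm5, Ccna2 and Spc25 had 0.90, 0.70 and 0.72, where they had 2.42, 3.09 and 3.13 over all cells. Other cycle genes stayed past 2-fold in this subset, with Pbk at 2.10, Rrm2 at 2.01, Cdca3 at 1.96, Cenpa at 1.56 and Top2a at 1.54. On the lower side, Apoe had -3.06, Sparcl1 -3.15, Id2 -1.69, Rb1 -1.61 and Hlf -1.53.

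**Figure D5:**
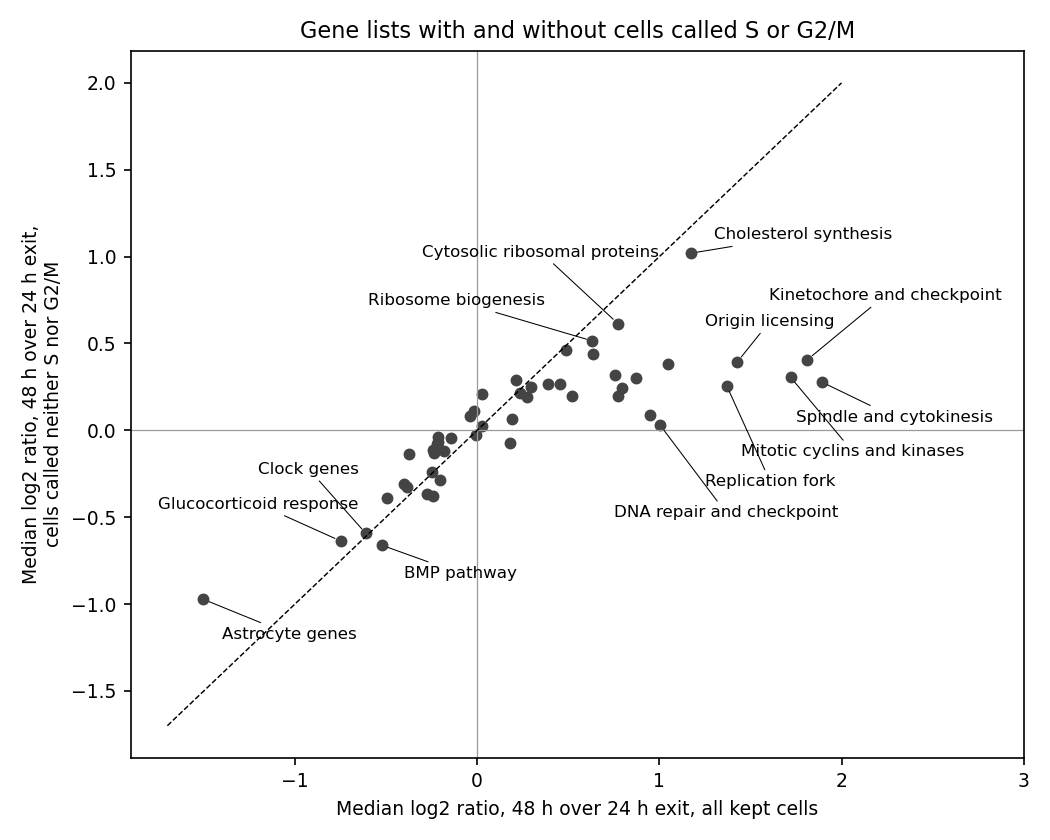
Each point is a gene list with at least 5 measured genes, with its median log2 ratio of 48 h over 24 h exit in all kept cells on the horizontal axis and in cells called neither S nor G2/M on the vertical axis. The dashed line marks equal medians. Cholesterol synthesis lies near the line at 1.17 and 1.02, and the spindle genes lie below it at 1.89 and 0.28.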

How the data were processed

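The authors deposited expected counts per gene and well for each plate and in a merged table of 640 cells and 15364 genes. Each value is a number of molecules after the authors' correction for chance reuse of the 4096 identifiers. The deposited table of cells holds, per the file headers, counts of molecules and genes, percent mitochondrial and ribosomal RNA, scores for the phases, and intensity for scatter and autofluorescence. BWA 0.7.15, R 4.2.0 and Seurat 4.1.1 are named in the submitters' processing notes, with hg19 and mm10 and no role for either. The labels give 47 cells per condition, and the table holds 151. How cells were filtered and doublets treated is not given in the sources used here.

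Counts were summed per culture and gate and divided by totals. CPM intervals were exact Poisson, and log2 ratio intervals combined them (MOVER). The calculation was tested on simulated data that held counting error alone. Of genes given a 2-fold difference 6% were called, of those given 3-fold 59.2% and of those given 4-fold 78.7%. Counts past 2-fold can thus leave out genes that truly differ by 2-fold or more. Members and 53 lists were chosen with earlier results of these data known. Named genes were the 20 highest and 20 lowest with at least 100 counts, counts in 10% of cells and 1 sign in all gates, up to 5 members of each list, and a fixed set. Not every gene chosen this way is given. Promoters came from RefSeq (GRCm38.p6). Scripts ran in Python 3.11.15 with scipy 1.17.1, numpy 2.4.6 and pandas 2.3.3, and plots came from matplotlib 3.10.9.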

Additional observations from a re-analysis of the deposited data

How the results depend on the processing

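Each culture was measured once, so no alternative carries a p-value. No paired analysis was possible because the gates of a culture are not replicates and the result comes from no test. Of 15 alternatives, 12 left both counts of genes past 2-fold within 1.5 times of 463 higher and 267 lower. Adding 1 CPM in place of 10 gave 917 higher and 645 lower genes. Spike-in scaling gave 1361 higher and 61 lower, with the median of all genes 0.43 higher. Cells called neither S nor G2/M gave 91 and 172. Leaving out 1 gate at a time gave 419 to 542 higher and 257 to 331 lower genes.

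With spike-in scaling, 13 list medians that were below 0 in all 4 gates turned above it: EGF, FGF and MAPK 0.19, Notch 0.25, Wnt 0.23, neural stem cell genes 0.30, sterol regulators, uptake and efflux 0.15, fatty acid oxidation 0.084, amino acid and ATF4 targets 0.27, lysosome 0.072, autophagy 0.13, glycolysis 0.33, peptide hormones and hypoxia-type targets 0.076, iron and NRF2 targets 0.42, and matrix and adhesion 0.26. Of the lists whose gates differed in sign, cell cycle brakes turned to 0.17, metallothioneins and zinc to 0.22, oligodendrocyte lineage to 0.40, nuclear oxidative phosphorylation to 0.62 and interferon and MHC to 0.37. In cells called neither S nor G2/M, Cdkn2c turned to -0.13 and Thrsp to 0.071. No other named gene past 2-fold turned under any alternative. Over all 463 higher and 267 lower genes, named or not, 31 had the other sign in cells called neither S nor G2/M. The limits are 1 culture per time, the plate, and low counts: a gene with 20 counts over both cultures cannot show a small difference.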

Other observations

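The sort measures of the cells stood as follows. The median autofluorescence was 5359 arbitrary units at 48 h and 5530 at 24 h, and by gate from low to high it was 3198, 4586, 6687 and 10253 units at 48 h, against 3448, 5012, 6727 and 9920 units at 24 h. The median side scatter was 31780 units at 48 h and 32796 units at 24 h, and the median forward scatter, which rises with cell size, was 67101 units at 48 h and 58914 units at 24 h. Counts per spike-in count grew along the gates of the 48 h culture, at 71.8, 81.4, 94.3 and 105 from low to high, against 49.7, 49.3, 51.9 and 74.4 at 24 h. No test was made of these values.

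Some genes were higher at 48 h than at 24 h and higher still in the activated culture on the same plate as the 48 h cells. Rab3b stood at 143, 122, 57.8 and 95.3 CPM in the 48 h gates, against 5.98, 1.15, 2.51 and 9.11 CPM in the 24 h gates, with 487 CPM in the activated culture. Lgals1, which encodes galectin-1, stood at 239 CPM at 48 h and 102 CPM at 24 h, with 1042 CPM in the activated culture. Tmsb10, an actin-sequestering peptide, stood at 90.7 CPM at 48 h and 35.1 CPM at 24 h, with 455 CPM in the activated culture. For Ccnd1 and Mki67 the 48 h and activated levels lay close together, at 1037 and 1103 CPM for Ccnd1 and at 359 and 333 CPM for Mki67. These 5 genes were chosen after their values had been seen.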
